A study of Mus musculus with 6 samples.

Results

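The mitochondrial ribosomal protein genes are the nuclear genes for the proteins of the mitochondrial ribosome, or mitoribosome. Here they were taken as every gene whose symbol in the platform's probe annotation begins with Mrpl or Mrps followed by a digit. This gave 76 genes with 132 probes, of which 73 genes passed the filter on dim probes, among 15440 features tested in all. Where several probes read a gene, the one with the highest mean log2 intensity stood for it. Total RNA from mouse bone marrow cells sorted by Ly6C, an antigen that classical monocytes carry at a high level, was read on Illumina bead arrays, 1 sample to an array. Granulocytic progenitors (GP, n = 3) were the Ly6C low cells. Monocyte-like precursors of granulocytes (MLPG, n = 3) were the Ly6C high cells. No strain, age, genotype or treatment is given in the labels, nor whether each replicate is another animal. The p-values therefore reflect the spread of these samples alone, and that spread may be technical. The question behind the comparison is what sets MLPG apart from GP.

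Mitochondria keep their own ribosomes, which translate the few messengers made from mitochondrial DNA, all of them for subunits of the oxidative phosphorylation complexes. The ribosomal RNAs are encoded by mitochondrial DNA, while the proteins are encoded in the nucleus, translated in the cytosol and imported. Mrpl genes are named for the large subunit, which joins amino acids, and Mrps genes for the small subunit, which reads the messenger. Mrps18a and Mrps30 carry small-subunit names but sit in the large subunit, and were counted there. Many of these proteins descend from bacterial ribosomal proteins, and others occupy positions found only in mitochondrial ribosomes. Mature neutrophils hold few mitochondria and draw mainly on glycolysis, while dividing myeloid precursors have more.

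Values are normalized probe intensities on a linear scale, as deposited, and differences are log2 of MLPG minus GP. A gene was called at a limma adjusted p under 0.05. Over all features, 79 were called, 22 higher and 57 lower in MLPG, and the median difference was 0.01. On the first principal component the GP arrays lay between -30.13 and -6.37 and the MLPG arrays between 12.37 and 22.23, with GP replicate 1 the farthest out. Genes of neutrophil precursors, mostly of granule proteins such as Mpo and Elane, served to check the cell type of the samples. This list also held the transcription factors Cebpe and Gfi1. In the mean of the 6 arrays 8 of 10 were above 15 on the log2 scale, near the top of the range. Their median difference was -0.03, but values so near the top leave little room to differ, so equal expression cannot be read from it. Of those with lower intensities, Camp had -0.29 (limma adjusted p = 0.235), Cebpe had -0.25 (limma adjusted p = 0.384) and Gfi1 had -0.06. Ly6c1, a gene of the sort antigen, read 35390, 40410 and 31550 in GP and 53060, 43070 and 46620 in MLPG. Its groups did not overlap, with a difference of 0.41 that was not called (limma adjusted p = 0.2). All 7 measured eosinophil markers had lower values in MLPG, 5 of them called (Prg2, Prg3, Epx, Ear6 and Ear10, genes of eosinophil granule proteins and ribonucleases), and their summed intensity was 56580 to 133500 in GP and 4596 to 7715 in MLPG.

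Promoter windows from RefSeq (assembly GRCm38.p6), from 250 bases before to 50 after each transcription start, were at hand for 67 of the 76 genes. The short motifs searched on both strands included GCGCATGC for NRF1, CCGGAAG for GABPA and AAGATGG for YY1, 3 factors known to bind promoters of nuclear genes for mitochondrial proteins. CCGGAAG ends with the letters that begin AAGATGG, and GCGCATGC can overlap its own reverse complement, so matches may share letters. At least 1 of these 3 motifs was present in 37 members (55.2%), against 27.4% of the 9244 tested genes with a window. CCGGAAG was found in 25 members (37.3%, against 17.7% of tested genes), AAGATGG in 13 (19.4%, against 7.49%) and GCGCATGC in 8 (11.9%, against 5.15%). The Myc E-box CACGTG was found in 5 members (7.46%, against 9.96%) and the SP1 motif GGGCGG in 33 (49.3%, against 61.1%). The NFY motif CCAAT was found in 25 (37.3%, against 39.1%) and the TATA box TATAAA in 4 (5.97%, against 8.19%). These matches describe letters in the windows and say nothing of binding.

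Windows of 4 small-subunit genes are printed 5′ to 3′ on the strand of the gene, with NRF1, GABPA and YY1 letters of either strand in capitals. Mrps27 (chr13:99344536-99344835, plus strand) had the second largest difference, Mrps18b (chr17:35916391-35916690, minus strand) has matches of NRF1 and GABPA, Mrps11 (chr7:78782881-78783180, plus strand) starts back to back with Mrpl46, and Mrps21 (chr3:95871465-95871764, minus strand) had the lowest difference.
Mrps27: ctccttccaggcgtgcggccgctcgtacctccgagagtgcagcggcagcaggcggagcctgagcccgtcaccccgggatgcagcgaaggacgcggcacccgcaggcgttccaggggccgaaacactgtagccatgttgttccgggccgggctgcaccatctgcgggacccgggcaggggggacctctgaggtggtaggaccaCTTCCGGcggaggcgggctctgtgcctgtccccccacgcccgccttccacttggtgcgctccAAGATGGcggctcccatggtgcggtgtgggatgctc
Mrps18b: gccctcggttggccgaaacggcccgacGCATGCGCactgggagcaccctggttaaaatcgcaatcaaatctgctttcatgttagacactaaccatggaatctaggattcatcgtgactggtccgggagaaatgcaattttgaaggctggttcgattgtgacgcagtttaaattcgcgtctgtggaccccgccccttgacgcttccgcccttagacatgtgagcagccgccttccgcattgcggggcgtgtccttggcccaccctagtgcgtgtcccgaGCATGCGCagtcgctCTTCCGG
Mrps11: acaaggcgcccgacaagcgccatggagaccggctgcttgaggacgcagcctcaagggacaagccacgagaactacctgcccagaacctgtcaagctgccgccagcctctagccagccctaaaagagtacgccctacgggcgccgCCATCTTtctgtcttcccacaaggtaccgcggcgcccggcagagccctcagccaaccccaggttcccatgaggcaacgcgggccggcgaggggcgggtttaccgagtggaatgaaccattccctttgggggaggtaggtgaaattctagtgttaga
Mrps21: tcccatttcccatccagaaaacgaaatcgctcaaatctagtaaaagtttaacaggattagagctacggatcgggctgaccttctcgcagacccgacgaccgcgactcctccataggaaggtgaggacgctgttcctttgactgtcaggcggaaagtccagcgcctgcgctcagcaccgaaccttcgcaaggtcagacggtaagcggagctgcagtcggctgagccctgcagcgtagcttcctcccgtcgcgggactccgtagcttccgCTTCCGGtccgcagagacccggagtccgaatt
Counted from the transcription start, the Mrps27 window holds the GABPA letters from base -48 and the YY1 letters from base 14. That of Mrps18b holds NRF1 letters from bases -223 and 28 and GABPA letters from base 43. In Mrps11 the YY1 letters begin at base -106, and in Mrps21 the GABPA letters begin at base 18, so such letters stood in windows near both ends of the range of differences. The median difference was 0.14 over the 25 measured members with GABPA letters and 0.21 over the 40 without. It was 0.14 with and 0.17 without NRF1 letters, and 0.18 with and 0.16 without YY1 letters, and none of these gaps was tested.

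The mitoribosomal genes lay slightly above 0 as a group, and no member passed the test alone. Of the 73 measured members, 69 (94.5%) had a difference above 0 and 4 below, where 51.7% of all features were above 0. The median difference was 0.16, or 1.12-fold, with quartiles of 0.09 and 0.29, while the quartiles of all features were -0.10 and 0.12. With limma, 0 of 73 were called, where 0.512% of all features were, and the smallest adjusted p was 0.144. At an unadjusted limma p under 0.05 there were 15 members (20.5%), all with positive differences, beside 14.7% of all features in either direction and 7.23% with MLPG higher. All 3 MLPG arrays were above all 3 GP arrays for 27 members (37.0%), beside 10.7% of all features, and the reverse held for 0 members, beside 9.66%. The 95% interval of the difference included 0 for 58 members, and its median width was 0.53. In sorted populations, fewer cells of a type and less RNA per cell cannot be told apart.

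Members were brighter than most features, with a median level of 12.05 on the log2 scale beside 9.33, so features of similar brightness were set beside them. Among the 2710 features between the members' quartiles of level, 11.01 and 12.67, the median difference was 0.01, 53.1% were above 0, and 14.0% had all MLPG arrays above all GP arrays. An unadjusted limma p under 0.05 was reached by 19.3% of them in either direction, and their share with MLPG higher was not taken. The members' 20.5% all had positive differences, so the 19.3% is not a like measure for them. Over the 9 members above an intensity of 10000 the median difference was 0.20, over the 7 below 1000 it was 0.19, and over the 57 between these it was 0.16. The differences therefore did not rest on members of 1 brightness. With all 76 genes and no filter, the median was 0.16 and 71 were above 0.

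**Figure D1:**
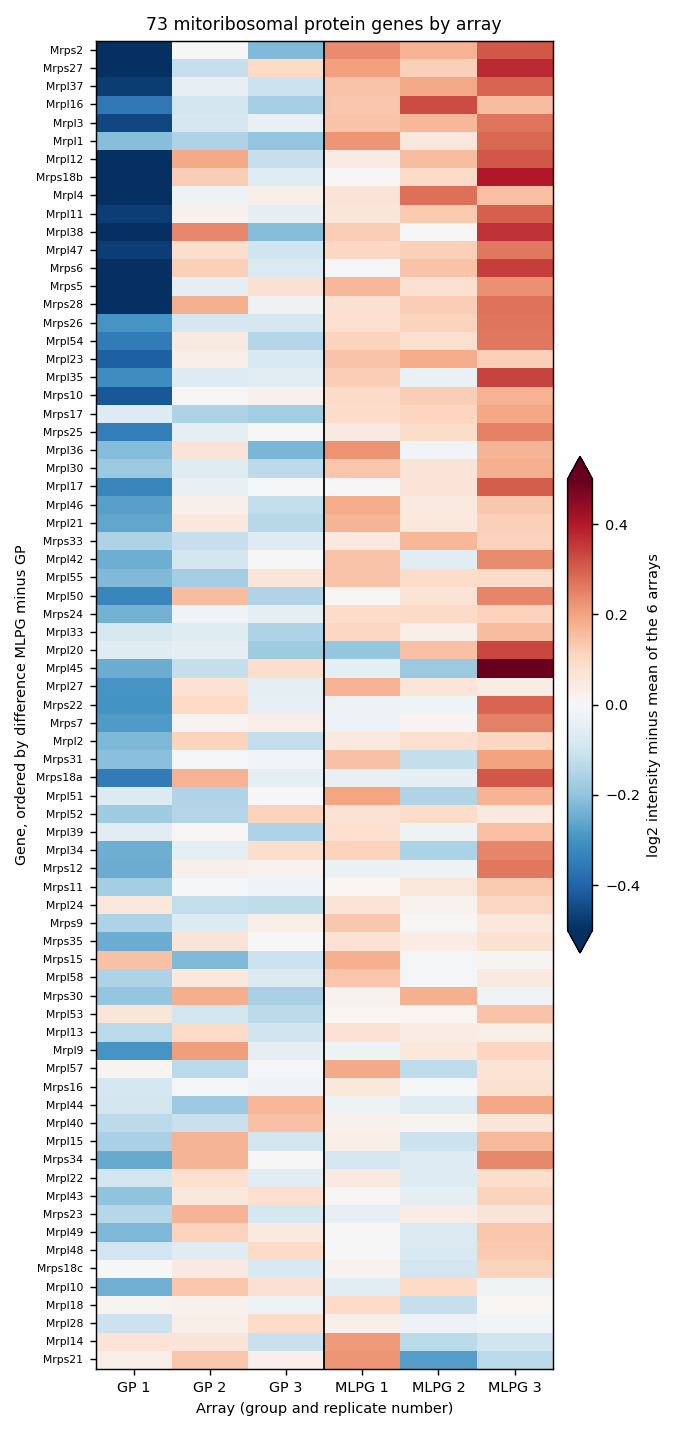
Each row is 1 of the 73 measured genes, ordered by its difference, and each column is 1 array; the colour is the log2 intensity minus the gene's mean over the 6 arrays, and the scale stops at 0.5 in both directions. The GP replicate 1 column is blue in most rows and holds the lowest value of 58 genes, while MLPG replicate 3 holds the highest of 46.

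Both subunits had like medians. Of the 48 measured large-subunit genes, 45 had a positive difference, with a median of 0.17, and 0 were called. Of the 25 small-subunit genes, 24 did, with a median of 0.16, and 0 were called. Members with a bacterial counterpart had a median of 0.19 (38 of 42 above 0), and those at positions found only in mitochondria had 0.15 (30 of 30 above 0). Whether these medians differ was not tested.

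Mrps2, a small-subunit protein with a bacterial counterpart, had the largest difference. Its intensity was 817.5, 1153 and 990 in GP replicates 1 to 3 and 1358, 1300 and 1432 in MLPG replicates 1 to 3. Every MLPG array was above every GP array, and the lowest was GP replicate 1. The means were 987 ± 168 and 1364 ± 66.2 (SD, n = 3), and the log2 difference was 0.48 with a standard error of 0.13 (limma adjusted p = 0.176). Without GP replicate 1 it was 0.35.

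Mrps27, a pentatricopeptide-repeat protein of the small subunit, read 424.3, 626.6 and 726.7 in GP and 782, 737.8 and 878.1 in MLPG. The groups did not overlap, though GP replicate 3 lay just under MLPG replicate 2. Its difference was 0.46 with a standard error of 0.19 (limma adjusted p = 0.319), and 0.24 without GP replicate 1. Within the groups Mrps27, Mrps28, Mrpl38 and Mrps18b varied most of all members, with pooled SDs of 0.29 to 0.30 on the log2 scale. Mrps18b, a mitochondrial relative of the bacterial protein S18, read 3471, 5592 and 4922 in GP and 5131, 5485 and 6776 in MLPG. Its groups overlapped, since GP replicate 2 exceeded MLPG replicates 1 and 2, and its difference of 0.33 (limma adjusted p = 0.462) was 0.13 without GP replicate 1.

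Mrps28, the counterpart of bacterial S1, behaved likewise, at 2455, 4274 and 3709 in GP and 3987, 4115 and 4561 in MLPG. GP replicate 2 was above 2 of the MLPG arrays. The difference was 0.31 (limma adjusted p = 0.502) with GP replicate 1 and 0.08 without it. Mrps12, the protein of the decoding centre where codon meets anticodon, read 10850, 13100 and 13050 in GP and 12580, 12650 and 15450 in MLPG. These groups overlapped, and the difference was 0.14 (limma adjusted p = 0.668), or 0.045 without GP replicate 1. At the messenger entry site, Mrps24 read 12920, 15010 and 14700 in GP and 16190, 16270 and 16470 in MLPG. Its groups did not overlap, and the MLPG arrays lay close together, with a difference of 0.20 (limma adjusted p = 0.359) that was 0.13 without GP replicate 1.

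Mrpl16, a large-subunit protein near the peptidyl transferase centre where peptide bonds form, was called once arrays of the same replicate number were paired, and not otherwise. Its intensity was 1550, 1863 and 1772 in GP and 2184, 2494 and 2211 in MLPG, so the groups did not overlap. The means were 1728 ± 161 and 2296 ± 172 (SD, n = 3), 1.33-fold apart. The log2 difference was 0.41 with a 95% interval of 0.17 to 0.65 and a limma adjusted p of 0.157. With the replicate number as a block, limma's adjusted p was 0.0476, and Mrpl16 was the 1 member called. That call was lost when replicate 1 or replicate 3 was left out of the block (limma adjusted p = 0.153 and limma adjusted p = 0.302). The full block called 4.08% of all features and 1.49% with MLPG higher, and 1 of 73 is no more than that background.

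Mrpl1, which in bacteria lies at the stalk where used transfer RNA leaves, had the smallest p of the members. It read 2066, 2154 and 2089 in GP and 2790, 2492 and 2922 in MLPG. The GP arrays were close together, and each MLPG array was above them. The difference was 0.38 with a standard error of 0.09 (limma adjusted p = 0.144), and it was 0.36 without GP replicate 1. A second, dimmer probe of Mrpl1 that also passed the filter gave 0.04.

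Mrpl37, a protein of the large subunit with no bacterial counterpart, read 4692, 6341 and 6064 in GP and 7206, 7450 and 7976 in MLPG. Mrpl3, a core protein at the peptidyl transferase centre, read 3570, 4628 and 4774 in GP and 5416, 5492 and 5898 in MLPG. Neither overlapped between the groups, and GP replicate 1 was the lowest array of both. Their differences were 0.42 (limma adjusted p = 0.21) and 0.38 (limma adjusted p = 0.229), and 0.28 and 0.25 without GP replicate 1. Mrpl2, the other core protein there, read 3839, 4853 and 4129 in GP and 4642, 4758 and 4828 in MLPG. GP replicate 2 was its highest array, and its difference was 0.16 (limma adjusted p = 0.548), or 0.08 without GP replicate 1. Mrpl27, which reaches towards the same centre, read 3134, 4045 and 3719 in GP and 4339, 4013 and 3952 in MLPG. Its groups overlapped, and the difference was 0.18 (limma adjusted p = 0.513), or 0.08 without GP replicate 1.

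**Figure D2:**
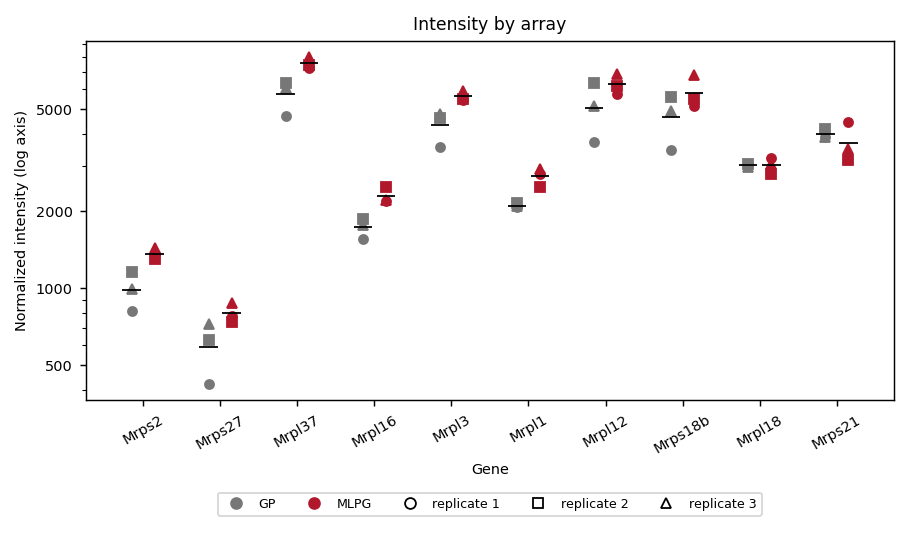
Normalized intensity on a log axis for 10 genes, GP in grey and MLPG in red, with a marker shape for each replicate number and a bar at each group mean. The MLPG points lie above the GP points for Mrps2, Mrps27, Mrpl37, Mrpl16, Mrpl3 and Mrpl1, and the groups overlap for Mrpl12, Mrps18b, Mrpl18 and Mrps21.

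The stalk of the large subunit recruits elongation factors. Mrpl12, its mobile protein, read 3724, 6331 and 5124 in GP and 5708, 6173 and 6881 in MLPG. The groups overlapped through GP replicate 2, and the difference of 0.34 (limma adjusted p = 0.453) was 0.13 without GP replicate 1. Mrpl11, at the factor-binding centre, read 1181, 1660 and 1585 in GP and 1705, 1791 and 2013 in MLPG. Those groups did not overlap, with a difference of 0.33 (limma adjusted p = 0.342) that was 0.18 without GP replicate 1. Mrpl10, which anchors Mrpl12, read 8247, 10740 and 10280 in GP and 9410, 10440 and 9599 in MLPG. Its groups overlapped widely, and the difference of 0.02 (limma adjusted p = 0.969) was -0.10 without GP replicate 1. A second probe of Mrpl10, nearly as bright (13.21 beside 13.25 on the log2 scale), gave 0.10.

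The exit tunnel carries the new peptide out of the large subunit, towards the inner membrane where it is inserted. All 6 members assigned to it here had positive differences, from 0.045 for Mrpl22 to 0.33 for Mrpl4, and 0 of 6 were called. That assignment need not hold every protein of the tunnel. Mrpl23 read 9920, 13480 and 12500 in GP and 14550, 14980 and 14290 in MLPG, and Mrpl4 read 1247, 1729 and 1796 in GP and 1842, 2128 and 1953 in MLPG. Both were without overlap, with differences of 0.30 (limma adjusted p = 0.323) and 0.33 (limma adjusted p = 0.356), which were 0.17 and 0.16 without GP replicate 1. Mrpl24, Mrpl44, Mrpl22 and Mrpl45 overlapped. Mrpl45, a membrane-facing protein at the tunnel exit, was the dimmest measured member, at 203.1, 221.7 and 255.8 in GP and 233.8, 211.7 and 342.8 in MLPG. Its difference of 0.19 rested on MLPG replicate 3, since it was -0.02 without that array.

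In the central protuberance, which bridges the subunits, 5 of the 6 members assigned there had positive differences and 0 were called, with a median of 0.10. Mrpl38 read 2277, 3825 and 2792 in GP and 3526, 3245 and 4168 in MLPG, and its groups overlapped with a difference of 0.32 (limma adjusted p = 0.479), or 0.15 without GP replicate 1. Mrpl18 read 3047, 3063 and 2971 in GP and 3229, 2787 and 3042 in MLPG. Its difference was -0.006 with a 95% interval of -0.21 to 0.20.

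Mrps21, a small-subunit protein with a bacterial counterpart, had the lowest difference of all, at 3906, 4195 and 3896 in GP and 4453, 3156 and 3486 in MLPG. The MLPG arrays spanned the GP arrays, with replicate 1 above and replicates 2 and 3 below. The difference was -0.13 with a standard error of 0.13 (limma adjusted p = 0.715). The other 3 members below 0 were Mrpl18, Mrpl28 and Mrpl14, at -0.006 to -0.015. At the bright end, Mrpl33 read 20260, 20570 and 19290 in GP and 23060, 21940 and 23870 in MLPG, without overlap and with a difference of 0.20 (limma adjusted p = 0.337). Mrps33, a small-subunit protein, read 12550, 12880 and 13360 in GP and 14430, 15650 and 15130 in MLPG, also without overlap, with a difference of 0.22 (limma adjusted p = 0.284). Mrpl19, Mrps14 and Mrpl32 were too dim to be tested, with intensities from 114.6 to 181.7 over the 6 arrays.

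**Figure D3:**
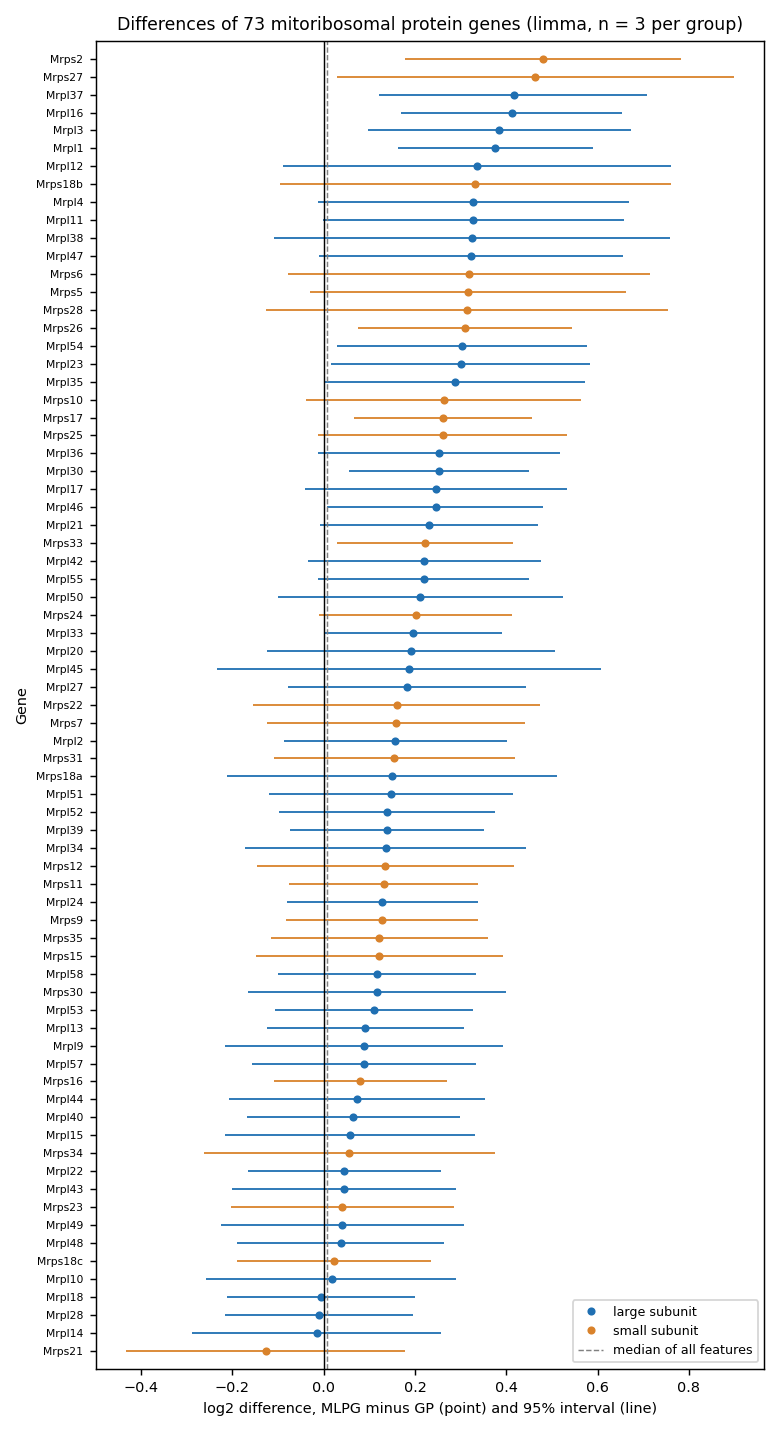
Points are log2 differences, MLPG minus GP, of the 73 measured genes, lines are 95% intervals from limma (n = 3 per group), colours mark the subunit, and the dashed line is the median of all features. Points run from -0.13 for Mrps21 to 0.48 for Mrps2, and 58 intervals include 0.

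GP replicate 1 held the lowest value of 58 of the 73 members (79.5%), beside 25.5% of all features and 29.6% of features of similar brightness. Relative to each gene's mean over the 6 arrays, the median member stood at -0.24, 0.01 and -0.05 in GP replicates 1 to 3 and at 0.07, 0.04 and 0.16 in MLPG. The GP arrays thus differed more among themselves than GP replicate 2 differed from the MLPG arrays. Without GP replicate 1, 62 of 73 members (84.9%) had a positive difference, beside 52.7% of all features, and the median was 0.12. In that fit 0 members were called, beside 0.596% of all features. At an unadjusted limma p under 0.05 there were 8 of 73 members without GP replicate 1, all with positive differences. All features stood at 10.8% in either direction and 5.23% with MLPG higher. The count of members also depended on other arrays, at 26 without GP replicate 2 and 4 without MLPG replicate 3. The shares of all features in those fits were not taken, so 26 and 4 have no background beside them. The small-subunit median was 0.09 without GP replicate 1.

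Deviations of same-numbered arrays correlated over all features, at 0.38, 0.30 and 0.47, so differences were also taken within replicate numbers. In replicate 1, 71 of 73 members were higher in MLPG than in GP, with a median of 0.29. In replicate 2 there were 38 of 73, with a median of 0.003. In replicate 3 there were 68, with a median of 0.23. Over all features these medians were 0.001, -0.006 and 0.02. The higher MLPG levels of the group were thus seen in replicates 1 and 3 and not in replicate 2. Members higher in MLPG in all 3 numbered comparisons came to 34 (46.6%), beside 21.8% of all features and 25.4% of those of similar brightness.

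**Figure D4:**
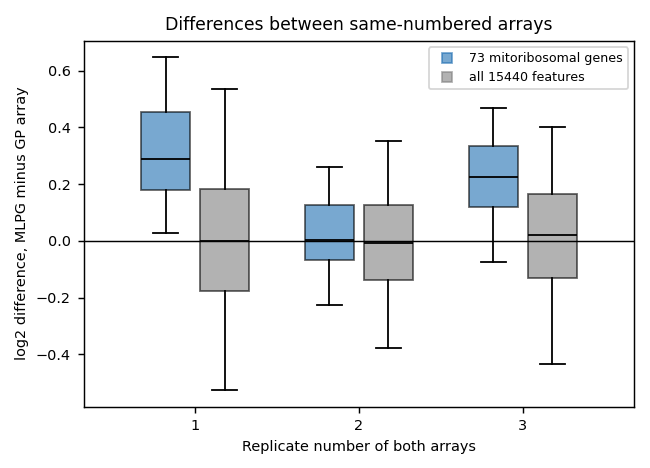
Boxes give the log2 difference between the MLPG and the GP array of each replicate number, for the 73 genes (blue) and all 15440 features (grey), with the median, the quartiles and whiskers at the 5th and 95th percentiles. The blue medians are 0.29, 0.003 and 0.23, and the grey ones lie between -0.006 and 0.02.

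Genes of other cell types also differed between these arrays. The 10 measured genes of mature neutrophils all had lower values in MLPG, 5 of them called, Mmp9, Mmp25, Retnlg, Fpr2 and Slc2a3 (all features with MLPG lower, 0.369%), and summed to 151900, 102700 and 140800 in GP replicates 1 to 3 and to 47670 to 60410 in MLPG. The order of the GP arrays in this sum was the reverse of their order in the median mitoribosomal level. The 11 monocyte genes, among them Ly6c1 of the sort antigen, all had higher values in MLPG. Of them 1 was called, the transcription factor Klf4 (all features with MLPG higher, 0.142%). They summed to 52620, 76790 and 58900 in GP and to 99640 to 111900 in MLPG. Their order in GP was the same as that of the mitoribosomal level, and so was the order of the eosinophil sum, at 56580, 133500 and 119700, though that list was lower in MLPG. Mmp8 of the neutrophil list and Siglecf and Ccr3 of the eosinophil list were below the filter. Of 8 measured erythroid markers, 7 had lower values in MLPG, with a median of -0.23, and 0 were called without the block. Hba-a1, a globin gene, differed by -1.91 and Slc4a1, the red cell anion exchanger, by -1.13 (limma adjusted p = 0.261 and limma adjusted p = 0.226). The erythroid sums, 14370 to 16860 in GP and 13610 to 15360 in MLPG, were carried by Tfrc, the transferrin receptor, which had a difference of 0.19. Lymphoid and plasma cell markers summed to 31600 to 42880 and 41350 to 48000, with 0 of 5 called. Most of that sum was Nkg7, at 30120 to 41130 in GP and 39390 to 46050 in MLPG. Cd3e, Cd8a, Ms4a1 and Jchain of that list were below the filter. Megakaryocyte markers summed to 1384 to 1804 and 897.6 to 1136, with 0 of 4 called without the block. With the replicate block, 3 erythroid markers (Hba-a1, Slc4a1 and Alas2) and 2 megakaryocyte markers (Itga2b and Gp1bb) were called lower, as were 8 neutrophil genes, and 7 monocyte genes were called higher. The block called 4.08% of all features in either direction and 1.49% with MLPG higher. The part of these cells in the mitoribosomal differences was not tested.

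In the other lists of mitochondrial gene expression 0 genes were called as well, and their medians ran from 0.06 to 0.27. All 18 genes listed as mitochondrial translation factors had positive differences, with a median of 0.27, and 0 were called. This list also held Lrpprc, Slirp, Oxa1l and Letm1, which have other roles. Lrpprc, which stabilises mitochondrial messengers, read 1059, 1295 and 1068 in GP and 1410, 1549 and 1897 in MLPG. Its groups did not overlap, with a difference of 0.50 (limma adjusted p = 0.176). Metap1d, which trims the first methionine, had 0.45 (limma adjusted p = 0.174). The list of mitochondrial aminoacyl-tRNA synthetases, which load transfer RNAs, also held the amidotransferase subunits Qrsl1, Gatb and Gatc, which are not synthetases. Its Gars and Kars serve the cytosol too. All 19 measured genes of this list had positive differences, with a median of 0.22, and 0 were called. Among them Mars2 had 0.32 (limma adjusted p = 0.195) and Ears2 had 0.52 (limma adjusted p = 0.25), or 0.34 without GP replicate 1.

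Of 23 genes listed as mitoribosome assembly factors, 19 had positive differences, with a median of 0.17, and 0 were called. This list also held Cox20, an assembly factor of cytochrome c oxidase. Tfb1m, which methylates the small ribosomal RNA, read 987.3, 893.5 and 782.4 in GP and 1146, 1221 and 1243 in MLPG. GP replicate 1 was the highest GP array here, the groups did not overlap, and the difference was 0.45 (limma adjusted p = 0.136). Rpusd4, a pseudouridine synthase of the large ribosomal RNA, had 0.26 (limma adjusted p = 0.226). Of 23 protein import genes, 21 had positive differences, with a median of 0.19, and 0 were called. Timm9, an intermembrane-space chaperone, had 0.46 (limma adjusted p = 0.252), or 0.29 without GP replicate 1, and Dnajc19 of the import motor had 0.29 (limma adjusted p = 0.259). The 4 mitoribosomal proteins with other kinds of symbol had a median of 0.08, with 0 called. Ptcd3 had 0.09 (limma adjusted p = 0.75) and Chchd1 had 0.19 (limma adjusted p = 0.478), or 0.12 without GP replicate 1.

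The list of mitochondrial DNA maintenance and transcription stood nearer to 0, with 13 of 18 genes positive and 0 called. Its median of 0.06 was -0.01 without GP replicate 1. Besides genes that copy and transcribe this DNA, it held nucleoside kinases such as Tk2 and genes that process RNA, such as Elac2. Tfam, which packages mitochondrial DNA, read 2069, 2397 and 2338 in GP and 2326, 2320 and 2394 in MLPG, with overlap and a difference of 0.05 (limma adjusted p = 0.847) that was -0.01 without GP replicate 1. Polrmt, the mitochondrial RNA polymerase, read 2986, 3518 and 3615 in GP and 4052, 3984 and 4656 in MLPG. These did not overlap, with a difference of 0.33 (limma adjusted p = 0.239). Tk2, the mitochondrial thymidine kinase, had a difference of -0.27 (limma adjusted p = 0.266).

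Among 11 measured regulators of mitochondrial gene expression, 7 had positive differences and 0 were called. Their median of 0.14 ranged with 1 array left out from 0.01 (MLPG replicate 3 out) and 0.02 (GP replicate 1 out) to 0.22 (GP replicate 3 or MLPG replicate 1 out). Esrra, a nuclear receptor that activates respiratory genes, had -0.31 (limma adjusted p = 0.194), and Clpp, a mitochondrial protease, had 0.28 (limma adjusted p = 0.383), or 0.16 without GP replicate 1. Myc, which drives growth and ribosome production, read 329.8, 562.5 and 679.7 in GP and 534.3, 408.6 and 831.1 in MLPG. It varied widely within both groups, with a difference of 0.18 (limma adjusted p = 0.853) that was -0.13 when GP replicate 1 was left out. Nrf1 and Gabpa, whose letters were searched in the promoters, had -0.18 (limma adjusted p = 0.451) and -0.08 (limma adjusted p = 0.726), and were named for that after their values were seen. Yy1, whose letters were searched as well, was below the filter.

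The cytosolic ribosomal protein genes showed a smaller median. Of 61 measured, 47 had positive differences, with a median of 0.08, and 0 were called. Of these, 31 lay above 15 on the log2 scale, near the top of the range. The smallest p belonged to Rpl3l, a muscle paralog of Rpl3, at -0.62 (limma adjusted p = 0.056, and 0.0246 with the replicate block). Rpl27 had 0.28 (limma adjusted p = 0.208). The difference between the 2 sets of ribosomal genes was not tested. With GP replicate 1 left out, the medians of these lists were lower, at 0.17 for translation factors, 0.14 for aminoacyl-tRNA synthetases, 0.13 for assembly factors, 0.11 for import genes, 0.03 for the proteins with other symbols and 0.04 for cytosolic ribosomal proteins.

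**Figure D5:**
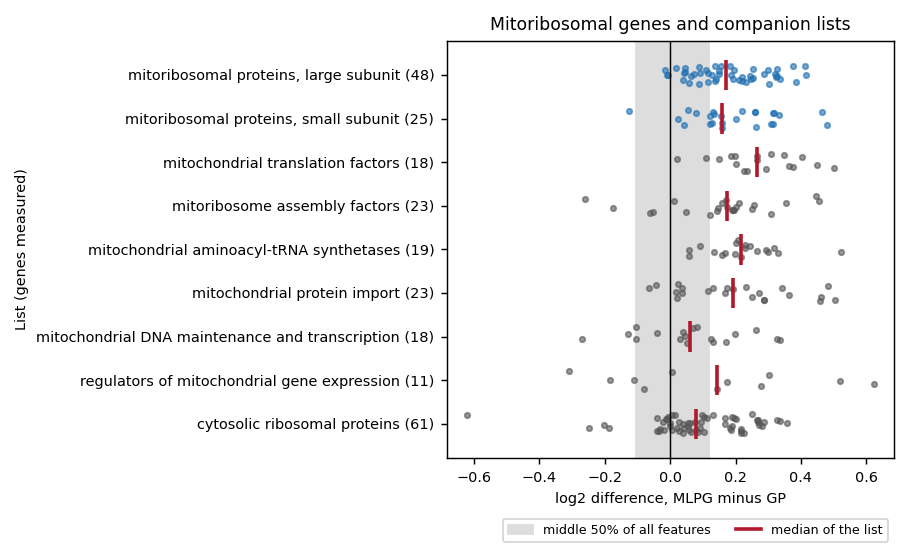
Each point is the log2 difference, MLPG minus GP, of 1 gene, in rows by list with the number of measured genes, the red line is the list's median, and the grey band holds the middle 50% of all features. Medians of translation factors (0.27) and aminoacyl-tRNA synthetases (0.22) lie to the right of those of DNA maintenance (0.06) and cytosolic ribosomal proteins (0.08).

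Of the 67 members with a window, 25 (37.3%) had the start of another gene on the opposite strand within 1000 bases upstream, beside 17.3% of tested genes. Mrpl46 and Mrps11 start 42 bases apart and had differences of 0.25 and 0.13. For 16 members the partner was another measured gene that encodes no mitoribosomal protein of the set. Of these members 14 had positive differences, with a median of 0.15, and of the partners 8 did, with a median of 0.01 and 0 called. Named after their values were seen, Mrps27 and its partner Ptcd2, which acts on mitochondrial RNA and starts 108 bases away, had 0.46 and 0.40. Mrpl18 and its partner Tcp1, a subunit of the cytosolic chaperonin, had -0.006 and 0.29.

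Probes of 1 gene mostly gave the same direction. Of 28 members with several probes above the filter, 22 had all of them on 1 side of 0. For the 42 dimmer probes the median distance from the gene's brightest probe was 0.06, and the largest was 0.41. Mrpl3 and Mrpl51 had probes that differed in sign by over 0.3. For Mrpl3 they were 0.38, 0.34 and -0.02, the last with a level of 7.69, near the filter. For Mrpl51 they were 0.15, -0.18 and 0.07.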

How the data were processed

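Total RNA of 6 samples was read on Illumina bead arrays. The deposited intensity values, 45281 probes on a linear scale, were used. The submitters' processing notes name GenomeStudio, with version and normalization not given in the sources used here. All 6 columns shared a lowest value of 88.2, a median of 179.3 and a highest value of 71674, so the authors' intensity values had been quantile normalized with background left in, which compresses changes of dim probes. The other deposited table heads its 12 columns by names that match no sample's labels, and they were not used here.

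Probes were kept where the mean log2 over the 6 arrays exceeded 7.48, the median of all probes (22640 probes). Each gene was read from its brightest kept probe, and unnamed probes were kept singly. Symbols came from the platform annotation: 34885 probes had 1, 18 had several and 10378 had none. All 76 member symbols were current by Entrez identifier. limma 3.58.1 in R 4.3.3 (lmFit, eBayes) was run on log2 values over all 15440 features, without covariates, with Benjamini-Hochberg adjustment and a threshold of 0.05, and was tested on simulated data. The number of arrays limits the precision. Between arrays, correlations were 0.979 to 0.995, and 0 pairs were identical.

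Same-numbered arrays' deviations from the group means correlated at 0.38, 0.30 and 0.47, all above the minimum of 0.1. The labels state no such pairing, and the same arrays served to find and to fit it. Alternatives were cyclic loess, other filters, the mean of probes, the block, array weights, an intensity trend, subtraction of the lowest value, and each array left out. The members and lists were chosen with earlier results of these data known. Members named were those called, the 8 highest and 8 lowest differences, the 4 brightest, dimmest and most variable, those with discordant probes, and those at sites of known role. From the lists of mitochondrial and ribosomal genes, the rule took called genes or otherwise the 2 with the smallest p, with Myc, Tfam and Polrmt. Of the marker lists, called genes, those the sums or the block turn on and Ly6c1 of the sort antigen are named. Which of these are given in full was decided after their values were seen.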

Additional observations from a re-analysis of the deposited data

How the results depend on the processing

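Direction of the members' median held under every alternative run, from 0.12 to 0.25. Members above 0 came to 62 to 73. Arrays left out 1 at a time gave medians of 0.117 to 0.215, and 2 to 348 called features against 79 with all arrays, with 0 members called in each. Of 918 values over 54 results, 837 kept their direction and their side of the threshold (or moved by less than the spread), 33 moved, 12 gained a call and 36 changed sign, none of these called; the causes were not tested. Called features were 220 with array weights and 146 with no filter. The replicate block gave 630 called features (4.08%) and 1 called member, Mrpl16. Chosen after seeing the data, the replicate block without pair 1, 2 or 3 gave 465, 2056 and 6 called features of 15440. Called members of the 73 came to 0, 18 and 0 there. The share of features called with MLPG higher was not taken in these fits, so the 18 have no like background beside them. The call of Mrpl16 was lost without pair 1 (limma adjusted p = 0.153) and without pair 3 (limma adjusted p = 0.302). Members at an unadjusted limma p under 0.05 numbered 15, 23 with no filter, 23 with the replicate block, 9, 39 and 7 with the replicate block without pair 1, 2 or 3, and 4 to 26 with 1 array left out. All features stood at 14.7% in the main fit and 10.8% without GP replicate 1. In the other fits that share was not taken, so changes in these counts may follow the whole array. Signs changed with array weights for Mrpl10 (-0.036), Mrpl14 (0.066), Mrpl18 (0.021), Mrpl44 (-0.012) and Mrpl48 (-0.01). They changed with cyclic loess for Mrpl10 (-0.001) and with the mean of probes for Mrpl18 (0.032). In the replicate block without pair 1 they changed for Mrpl10 (-0.07) and Mrpl49 (-0.049). Without pair 2 they changed for Mrpl14 (0.077), Mrpl18 (0.059), Mrpl28 (0.015) and Mrps21 (0.014), and without pair 3 for Mrpl22 (-0.005), Mrpl28 (0.038) and Mrps18c (-0.061). With 1 array left out, ranges crossed 0 for Mrpl10 (-0.1 to 0.091), Mrpl14 (-0.125 to 0.049), Mrpl18 (-0.056 to 0.05), Mrpl28 (-0.066 to 0.034), Mrpl44 (-0.006 to 0.175), Mrpl45 (-0.022 to 0.326), Mrpl48 (-0.018 to 0.096), Mrpl49 (-0.062 to 0.108) and Mrps18c (-0.028 to 0.077). The smallest members' differences are thus within the spread of 3 arrays a group, whose signal over background could not be set per array.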
